A study of Mus musculus with 4 samples.

Results

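A set of 10 noncoding genes of 2 kinds were followed in cultured mouse pancreatic fibroblasts: the nuclear long noncoding RNAs (lncRNAs) Malat1, Neat1, Kcnq1ot1 and Pvt1, and the small nucleolar RNA (snoRNA) host genes Gas5, Snhg1, Snhg3, Snhg5, Snhg6 and Snhg8. They were listed by name and not by a cut on a measured value, but with earlier results of these data known. A row under its symbol was found for 8 of the 10 (3 of 4 nuclear lncRNAs and 5 of 6 hosts) among the 38921 gene intervals of each table, and none had more than 1 row. Kcnq1ot1 and Snhg8 had no row of that name. Poly-A RNA was sequenced in 4 libraries, 2 of fibroblasts from KPC mice and 2 of fibroblasts from wild type mice, all of mixed strain and all grown in serum. KPC is the usual name of a pancreatic cancer model in which Cre driven by the Pdx1 promoter switches on engineered alleles, mutant Trp53 included, in the pancreatic epithelial lineage, so the fibroblasts themselves are not the cells the driver targets. The labels give the name alone, with no age, sex or disease stage, and do not say how many animals gave each culture. They call the libraries of a group biological replicates. KPC libraries were set against wild type libraries, and nuclear lncRNAs against snoRNA hosts.

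Malat1 is an abundant RNA of nuclear speckles, where splicing factors gather. Neat1 is the scaffold of paraspeckles, nuclear bodies that retain RNAs and proteins, and is made as a short form and a long form from the same start, of which the long one builds the body. Pvt1 is transcribed beside the Myc gene, and Kcnq1ot1 is the paternally expressed antisense RNA that silences imprinted genes around Kcnq1. A snoRNA host works differently: the snoRNAs lie in its introns and are cut out after splicing. Many snoRNAs, though not all, guide 2'-O-methylation (box C/D) or pseudouridylation (box H/ACA) of ribosomal RNA. The spliced host RNA that remains is exported, and that of Gas5 and several Snhg genes is degraded by nonsense-mediated decay when it is translated.

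The sequences that set the classes apart are shown first, from GENCODE M21 transcripts of the GRCm38 build. At the ends of Malat1 and of long Neat1, in place of an ordinary poly-A tail, 2 U-rich runs and an A-rich run fold into a triple helix that protects the RNA. Capitals mark the exact runs of at least 10 bases that the last 400 bases of Malat1 and the last 100 bases of long Neat1 share: TTTCTTTTCCTGA, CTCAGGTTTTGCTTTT and AAAAAGCAAAA. In this order, and within 150 bases, these 3 runs occurred in 2 of 135671 transcripts searched (0.00147%), the Malat1 and Neat1 transcripts they were read from, and in 0 on the opposite strand. The Malat1 stretch (chr19:5795978-5796069, minus strand) ends 288 bases before the annotated end, and the Neat1 stretch (chr19:5824708-5824801, minus strand) ends at it.
Malat1: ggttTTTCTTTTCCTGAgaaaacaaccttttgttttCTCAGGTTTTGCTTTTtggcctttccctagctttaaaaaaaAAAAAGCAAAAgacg
Neat1: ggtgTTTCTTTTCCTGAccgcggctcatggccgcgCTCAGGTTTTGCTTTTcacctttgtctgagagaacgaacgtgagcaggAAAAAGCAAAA

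One snoRNA from each host shows what the introns carry. Capitals mark the boxes by which snoRNA proteins recognise them: the C box (TGATGA) where an exact copy stands near the start, the D box (CTGA) near the end of box C/D snoRNAs, and the ACA box of H/ACA snoRNAs. Snord78 (chr1:161036984-161037049, plus strand) is from Gas5, Snord22 (chr19:8725866-8725991, plus) from Snhg1, Snora73b (chr4:132352322-132352526, minus) from Snhg3, Snord50a (chr9:88521529-88521600, minus) from Snhg5, Snord87 (chr1:9942463-9942549, minus) from Snhg6 and Snora24 (chr3:123507937-123508066, minus) from Snhg8.
Snord78: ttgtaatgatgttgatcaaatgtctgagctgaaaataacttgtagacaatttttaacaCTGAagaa
Snord22: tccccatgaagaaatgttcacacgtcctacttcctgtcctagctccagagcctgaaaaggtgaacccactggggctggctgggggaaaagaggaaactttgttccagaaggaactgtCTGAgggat
Snora73b: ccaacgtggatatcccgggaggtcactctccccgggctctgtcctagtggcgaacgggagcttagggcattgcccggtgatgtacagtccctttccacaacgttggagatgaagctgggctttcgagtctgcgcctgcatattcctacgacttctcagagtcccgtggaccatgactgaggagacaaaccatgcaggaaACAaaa
Snord50a: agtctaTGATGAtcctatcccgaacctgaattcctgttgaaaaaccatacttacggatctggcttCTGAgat
Snord87: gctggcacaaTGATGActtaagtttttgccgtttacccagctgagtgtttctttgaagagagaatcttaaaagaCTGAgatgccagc
Snora24: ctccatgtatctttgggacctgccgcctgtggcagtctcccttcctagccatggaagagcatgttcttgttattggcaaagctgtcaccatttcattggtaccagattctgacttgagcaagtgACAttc

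The libraries held 57926327 and 68312367 counts in KPC replicates 1 and 2, and 53232634 and 22302141 counts in wild type replicates 1 and 2. Levels are given as CPM, the count over the library's TMM-scaled total. Fibroblast markers summed to 11109 and 12754 CPM in the KPC libraries and to 13402 and 11257 CPM in the wild type libraries, with all 10 markers detected in each. Markers of other cells were present too and differed between libraries. The 12 macrophage markers with a row summed to 1015 and 2145 CPM in KPC, against 70.8 and 258 CPM in wild type. The 11 epithelial markers summed to 2046 and 1496 CPM in KPC, against 61.6 and 742 CPM in wild type. Of these sums, Spp1 alone gave 860 and 1050 CPM in KPC and 29.7 and 310 CPM in wild type. Only 4 of the 11 had both KPC libraries above both wild type ones, beside 20.6% of all tested rows. Cldn4 was highest in wild type 2, at 44.6 CPM. The 8 endothelial markers summed to 18.6 and 31.1 CPM in KPC, against 748 and 43.6 CPM in wild type. The 8 endocrine markers summed to 1.80 and 2.48 CPM in KPC, against 3.92 and 955 CPM in wild type, with Sst at 0 in all libraries but wild type 2, and Ins1 and Gcg also at 0 in KPC 1. The 7 Schwann cell and neural markers summed to 2.33 and 2.67 CPM in KPC, against 28.3 and 5.46 CPM in wild type, with Foxd3 at 0 in KPC 1. The part of these cells in the values below was not tested, and in bulk RNA fewer cells of a type and less RNA per cell cannot be told apart. Sex-linked genes, picked out after their values were seen, differed between replicate 1 and replicate 2 to unequal degrees. Xist, the RNA of the inactive X, stood at 58.4 and 0.147 CPM in KPC 1 and 2 and at 136 and 0.134 CPM in wild type 1 and 2, while the Y-linked Eif2s3y stood at 0.238 and 13.9 CPM in KPC and at 0.266 and 24.96 CPM in wild type. Kdm5d, also Y-linked, was lower in replicate 1, at 0.646 and 2.34 CPM in KPC and 0.552 and 3.13 CPM in wild type. Other Y-linked genes were present in replicate 1 as well. Ddx3y stood at 47.1 and 52.4 CPM in KPC and at 42.3 and 68.6 CPM in wild type. Uty stood at 2.94 and 5.56 CPM in KPC and 3.63 and 6.84 CPM in wild type. Trp53, an engineered gene of the model, stood at 22.8 and 16.7 CPM in KPC and 34.2 and 29.1 CPM in wild type, and did not pass the test (log2 fold change -0.68 ± 0.23 (SE), adjusted p = 0.541, edgeR quasi-likelihood test).

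No measured member passed the test of KPC against wild type fibroblasts, and in 7 of the 8 the groups overlapped. All 8 passed the low-count filter, and 0 of 8 passed the two-sided edgeR quasi-likelihood test at a Benjamini-Hochberg adjusted p of 0.05 over 23046 tested rows, where 0% of all tested rows passed in either direction. At an unadjusted p under 0.05 the members again gave 0 of 8, beside 4.73% of tested rows higher and 3.94% lower in KPC. DESeq2, which called 1.55% of its rows higher and 1.28% lower, also called 0 of the 8. Under limma voom 0 of all tested rows passed in either direction, so it could call no member. The log2 fold change was below 0 for 6 of the 8 members, beside 51.2% of all tested rows. Pvt1 was the 1 member whose groups did not overlap, with KPC below wild type, as was the case for 20.5% of tested rows. No member had both KPC libraries above both wild type libraries, which 20.6% of tested rows had.

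**Figure D1:**
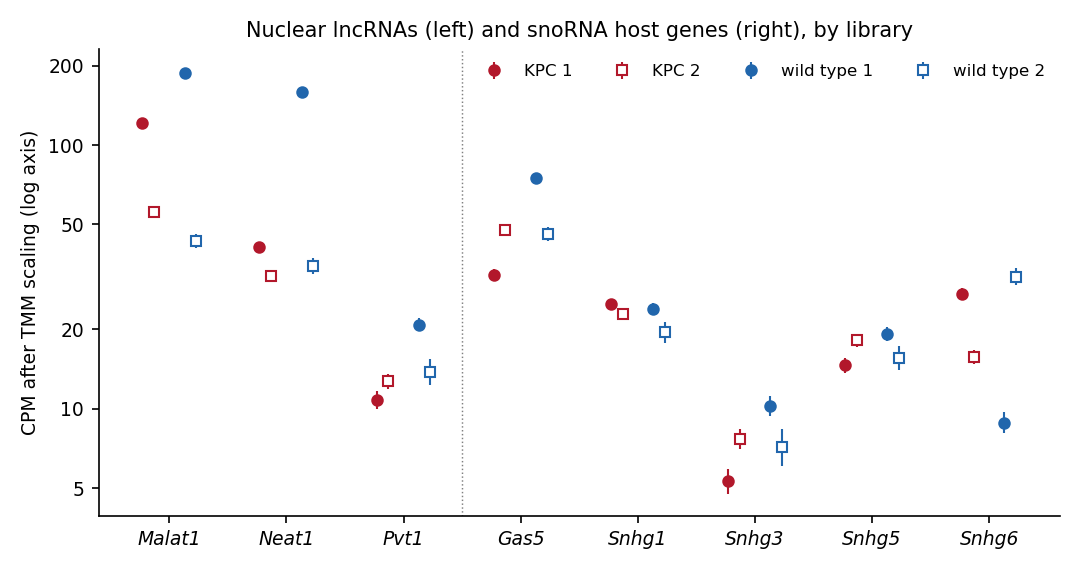
Level of each of the 8 measured members in each library, in CPM after TMM scaling on a log axis; red marks KPC and blue wild type, filled circles replicate 1 and open squares replicate 2, and bars are exact Poisson intervals at 95% that cover counting error only. Wild type 1 is the highest library for Malat1, Neat1, Pvt1, Gas5, Snhg3 and Snhg5 and the lowest for Snhg6, and only Pvt1 has both KPC points below both wild type points.

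Malat1 was high in replicate 1 of both genotypes and low in replicate 2. It lies on chromosome 19 (5795690 to 5802672, minus strand, a single-exon main transcript) and had 121 and 55.9 CPM in KPC 1 and 2, against 188 and 43.3 CPM in wild type 1 and 2. The groups overlapped: replicate 1 was above replicate 2 in both genotypes, by 2.16-fold in KPC and 4.34-fold in wild type, as in 18.4% of tested rows and in Xist, whose part in this was not tested. The mean was 88.4 ± 46.01 CPM in KPC and 116 ± 102 CPM in wild type (SD, n = 2 each). The log2 fold change of -0.39 ± 0.76 (SE) was smaller than its error (adjusted p = 0.926, edgeR), and without wild type 1 it was 1.03 (adjusted p = 0.647). Reads spread over the whole transcript, with 98.9% and 98.1% of its bases covered in KPC and 98.9% and 88.3% in wild type.

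Neat1 was high in a single library. It lies on the same strand as Malat1 (chromosome 19, 5824708 to 5845478, minus), with its end 22036 bases before the Malat1 start, and had 41.0 and 31.9 CPM in KPC, against 160 and 34.7 CPM in wild type. Wild type 1 was 3.9-fold above the highest of the other libraries, a gap of over 3-fold that 1.29% of tested rows showed, and the other 3 libraries lay close together. Mean levels were 36.5 ± 6.39 CPM in KPC and 97.2 ± 88.3 CPM in wild type (SD, n = 2 each), and the log2 fold change of -1.42 ± 0.72 (SE) did not pass (adjusted p = 0.635, edgeR). This value rested on wild type 1: without it the log2 fold change was 0.073, and without wild type 2 it was -2.13. In each of these fits 1 wild type library is assumed to vary like the KPC pair. Wild type 1 was also the library in which the endothelial markers summed to 748 CPM, and their part in its Neat1 and Malat1 levels was not tested.

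Reads on Neat1 reached beyond its short form but covered only part of the long one. The annotated transcript of the short form has 3004 bases and that of the long form 20771. The libraries covered 29.6% and 26.2% of the interval in KPC and 48.1% and 19.7% in wild type. The smallest coverage, 4102 bases in wild type 2, the shallowest library, was still longer than the short form. Other annotated transcripts have 1030 and 711 bases, so those 4102 bases need not include reads of the long form. Since reads of the short form cannot be told from those of the same stretch of the long one, no level was set for either. The tables also hold short rows inside Neat1 for single stretches of it, and wild type 1 was the highest library in each of them. The row NEAT1_3, with most counts of them, had 1.68 and 1.39 CPM in KPC, against 7.17 and 1.61 CPM in wild type.

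Both KPC values of Pvt1 lay below both wild type values, a gap that did not pass the test. It spans 15:62037986 to 62378096 on the plus strand, 47612 bases past the end of Myc, and had 10.8 and 12.7 CPM in KPC, against 20.9 and 13.8 CPM in wild type. KPC 2 and wild type 2 lay close together, and the log2 fold change was -0.57 ± 0.27 (SE; adjusted p = 0.628, edgeR). Its interval also holds H2afy3, a processed pseudogene, with 119 and 215 counts in KPC and 92 and 46 in wild type, which amounts to 18.8% and 24.9% of the Pvt1 counts in KPC and 8.39% and 14.9% in wild type. With those counts taken off, the log2 fold change was -0.76 (adjusted p = 0.578, edgeR). Myc, a growth-promoting transcription factor gene, had 27.9 and 24.98 CPM in KPC, against 19.8 and 19.9 CPM in wild type, the KPC values above the wild type ones (log2 fold change 0.41 ± 0.17 (SE), adjusted p = 0.591, edgeR).

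Kcnq1ot1 could not be measured as such. Its annotated interval lies inside Kcnq1, on the other strand, and reads of both genes fall on the Kcnq1 row, which cannot tell them apart because no strand was apparent in the counts. Kcnq1 encodes a potassium channel and had 3.79 and 4.04 CPM in KPC, against 7.51 and 7.02 CPM in wild type. The libraries of each group were close and the groups apart, with a log2 fold change of -0.89 ± 0.23 (SE; unadjusted p = 0.0123, adjusted p = 0.456, edgeR). Leaving out any 1 library kept it between -0.94 and -0.84. Within the Kcnq1ot1 interval 4 short rows held at most 3 counts in any library, which is the limit a count of 0 allows (0.0510 and 0.0442 CPM in KPC, 0.0571 and 0.134 CPM in wild type).

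Gas5, named for its accumulation in growth-arrested cells and host to 9 snoRNA rows here, was highest in wild type 1. It lies on chromosome 1 (161034422 to 161038539, plus strand) and had 32.3 and 47.4 CPM in KPC, against 74.8 and 46.1 CPM in wild type. KPC 2 and wild type 2 were nearly level, and wild type 1 stood above both and KPC 1 below. The means were 39.9 ± 10.7 CPM in KPC and 60.4 ± 20.3 CPM in wild type (SD, n = 2 each), with a log2 fold change of -0.60 ± 0.33 (SE; adjusted p = 0.655, edgeR).

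Snhg1 and Snhg5 varied least between libraries. Snhg1 (19:8723496 to 8726442, plus strand, on the same chromosome as Malat1 and Neat1) had 24.9 and 23.0 CPM in KPC, against 23.9 and 19.5 CPM in wild type, a 1.28-fold range over all 4 libraries and a log2 fold change of 0.14 ± 0.19 (SE; adjusted p = 0.885, edgeR). Snhg5 (9:88521052 to 88522929, minus strand) had 14.6 and 18.2 CPM in KPC, against 19.2 and 15.6 CPM in wild type, a 1.32-fold range and a log2 fold change of -0.08 ± 0.22 (SE; adjusted p = 0.946, edgeR). In both genes the groups overlapped.

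Snhg6 had its extremes in the wild type pair. On chromosome 1 (9941959 to 9944118, minus strand), it had 27.4 and 15.7 CPM in KPC, against 8.86 and 31.7 CPM in wild type, so the wild type libraries were both the lowest and the highest, 3.58-fold apart. It was the 1 member with its lowest level in wild type 1. The log2 fold change was 0.09 ± 0.62 (SE; adjusted p = 0.986, edgeR), -0.56 without wild type 1 and 1.28 without wild type 2.

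The Snhg3 row is the least certain of the hosts. Located at 4:132348014 to 132353686 on the minus strand, it had 5.30 and 7.68 CPM in KPC, against 10.3 and 7.16 CPM in wild type (log2 fold change -0.43 ± 0.32 (SE), adjusted p = 0.744, edgeR), with overlapping groups. The fewest counts behind a member's value were its 160 in wild type 2, whose exact Poisson interval at 95% ran from 6.09 to 8.35 CPM. The gene shares its stretch with Rcc1, a nuclear exchange factor on the same strand, and with Gm17300, annotated on the opposite one. The Gm17300 row held 277 and 469 of the 312 and 521 Snhg3 counts in KPC, and 495 and 146 of the 540 and 160 counts in wild type. Short overlaps of Gas5 with Zbtb37 and of Snhg6 with Mcmdc2 covered 427 and 126 bases.

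**Figure D2:**
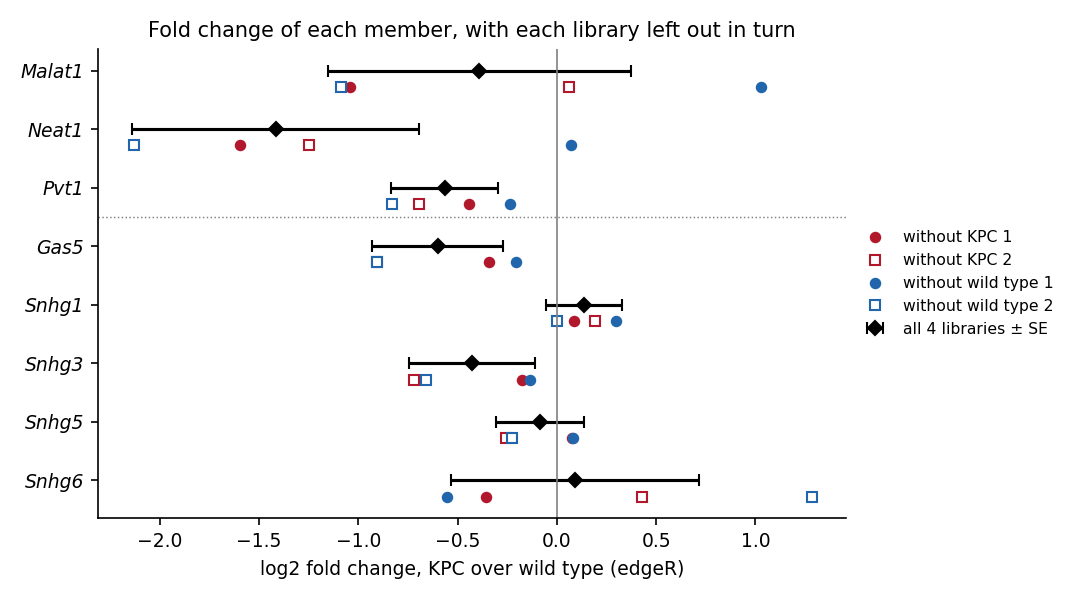
Log2 fold change of KPC over wild type for each member from edgeR (black diamonds, bars ± SE), with the value when 1 library is left out as coloured points; the dotted line parts the nuclear lncRNAs (above) from the snoRNA hosts (below). Without wild type 1 Neat1 lies at 0.073 in place of -1.42 and Malat1 at 1.03 in place of -0.39, while every Pvt1, Gas5 and Snhg3 value stays below 0.

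Levels can be set side by side between genes only per length. Malat1 had 17.3 and 8.01 CPM per kilobase of interval in KPC, against 26.9 and 6.21 in wild type, so it stood above every other member in replicate 1 of both groups but below Gas5 and Snhg5 in KPC 2, and below Snhg6, Gas5, Snhg5 and Snhg1 in wild type 2. Gas5 had 7.84 and 11.5 CPM per kilobase in KPC, against 18.2 and 11.2 in wild type, and Snhg6 had 12.7 and 7.29 in KPC, against 4.11 and 14.7 in wild type. Snhg5 (7.79 and 9.71 in KPC, 10.2 and 8.29 in wild type) and Snhg1 (8.44 and 7.79 in KPC, 8.12 and 6.62 in wild type) lay within the same range. The order of Malat1 and these 4 hosts thus differed from library to library. Neat1 averaged 1.76 CPM per kilobase in KPC and 4.68 in wild type, Snhg3 1.14 in KPC and 1.54 in wild type, and Pvt1 0.0345 in KPC and 0.0510 in wild type. The lengths are whole intervals, introns included, so the spliced hosts and Pvt1 are set lower than per length of their exons. Gas5 has 851 exonic bases in an interval of 4117, while the exons of Malat1 fill its interval. The order given here therefore holds per interval length only, and per length of exons it can differ.

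Reads covered more of the host genes than their exons. In Snhg1, where transcripts without a retained intron have 865 exonic bases in all, 2695 and 2730 of 2946 bases were covered in KPC and 2807 and 2029 in wild type. Gas5 has 851 such bases, and 3270 and 3441 of 4117 were covered in KPC, 3462 and 2725 in wild type. The snoRNA rows were read for their share of the host's counts (Wilson intervals cover counting error only). A read that only touches a row counts in full: Gm23246, in Snhg1, had 2 counts on 22 covered bases in wild type 2. Even coverage would thus give short rows a share above that of their length. Reads of a snoRNA and of host RNA with the intron still in it could not be told apart, so the shares are not snoRNA levels. In Snhg1, 8 snoRNA rows made up 20.8% of the length and held 15.1% and 18.5% of the counts in KPC, against 21.1% and 17.9% in wild type. In Gas5, 9 rows with 16.03% of the length held 7.06% and 7.43% in KPC, against 8.22% and 7.38% in wild type. The Snhg1 share was lowest in KPC 1, whose interval (13.4% to 17.0%) lay below that of wild type 1 (18.98% to 23.5%), while the replicate 2 libraries lay between them. In Gas5 the intervals of all 4 libraries overlapped.

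The shares were lower in Snhg5 and Snhg6 and highest in Snhg3. In Snhg5, 2 rows with 7.57% of the length held 4.30% and 2.67% of the counts in KPC, against 5.14% and 0.862% in wild type, and in Snhg6 the Snord87 row (3.98% of the length) held 0.559% and 0.375% in KPC, against 1.72% and 0.282% in wild type. In Snhg3, 2 rows with 7.19% of the length held 29.8% and 30.7% in KPC, against 38.3% and 24.4% in wild type. Both are copies of 1 H/ACA snoRNA, Snora73a and Snora73b, that differ at 7 of 205 positions, and the pair in Snhg5, Snord50a and Snord50b, differs at 1 of 72, so reads could have been assigned to either copy. No host had both KPC libraries above both wild type libraries in this share. With the snoRNA counts taken off the hosts, no host passed the test, and the log2 fold changes lay between -0.59 for Gas5 and 0.19 for Snhg1. Snora24, inside the annotated Snhg8, was the 1 measure of that locus, with 20 and 37 counts in KPC and 39 and 4 in wild type. Those counts, too, cannot tell the snoRNA from unspliced host RNA.

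**Figure D3:**
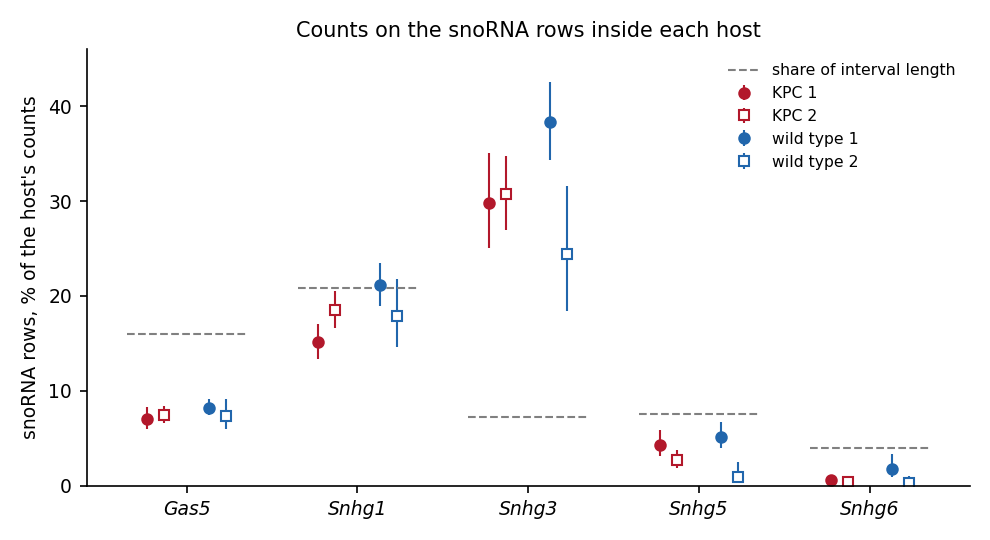
Counts on the snoRNA rows inside each host as a percentage of the host's counts, in each library, with Wilson intervals at 95%; the dashed line is the share of the host interval that those rows make up. Snhg3 lies above its length share in every library (24.4% to 38.3% against 7.19%), and Gas5, Snhg5 and Snhg6 lie below theirs. Reads that only touch a row are counted in it, so even coverage would lie above the dashed line.

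The classes were then compared as wholes. The median log2 fold change was -0.57 over the 3 nuclear lncRNAs and -0.08 over the 5 hosts, beside -0.01 over all tested rows. The mean log2 CPM of the nuclear lncRNAs was 5.24 and 4.83 in KPC, against 6.42 and 4.78 in wild type, and that of the hosts 4.14 and 4.24 in KPC, against 4.32 and 4.32 in wild type. The host mean was nearly level across libraries, with a difference of group means of -0.13, while its single genes ranged more widely: from KPC 1 over wild type 1, Gas5 stood at -1.21, Snhg3 at -0.95 and Snhg6 at 1.63 on the log2 scale. Each class mean is on the log2 CPM scale and not per length.

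The nuclear lncRNAs exceeded the hosts by 1.09 and 0.58 log2 units in KPC, against 2.10 and 0.46 in wild type. These give means of 0.84 ± 0.36 in KPC and 1.28 ± 1.16 in wild type (SD, n = 2 each) and a difference of -0.44, within the spread of the wild type pair. The direction rested on wild type 1, without which the difference was 0.38. Taken by the median of each class in place of the mean, it was -1.18. It is given as a description with no p, because the members were chosen with results of these data known.

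**Figure D4:**
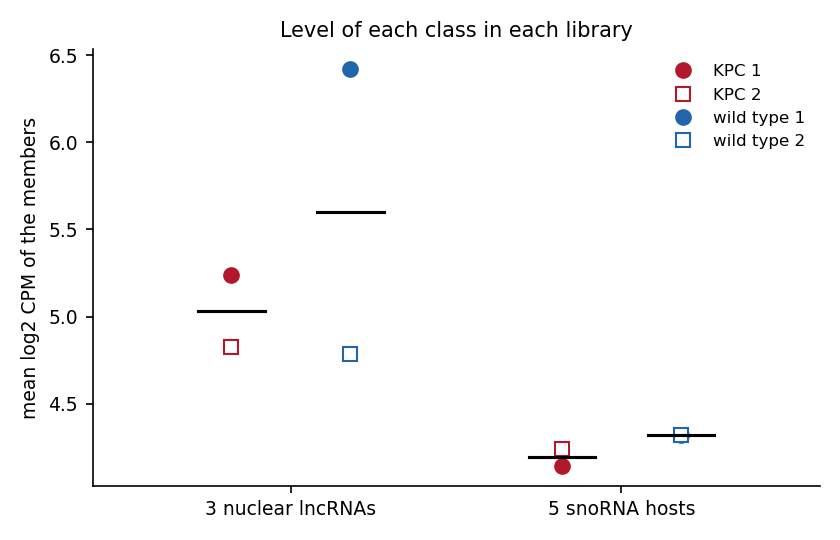
Mean log2 CPM of the 3 nuclear lncRNAs and of the 5 snoRNA hosts in each library, KPC in red and wild type in blue, replicate 1 as circles and replicate 2 as squares, with the group mean as a bar. The nuclear lncRNAs span 4.78 to 6.42 with wild type 1 on top, and the hosts 4.14 to 4.32, where both wild type points lie on each other.

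Genes that act with the members were taken from lists chosen by function, and 0 genes of any of them passed the adjusted edgeR test. Of 12 paraspeckle proteins, 11 had a log2 fold change above 0 and 5 had both KPC libraries above both wild type ones (median 0.18), beside 51.2% of all tested rows below 0 and 20.6% with both KPC libraries above. Pspc1, a core paraspeckle protein, had 23.7 and 18.3 CPM in KPC, against 15.8 and 15.6 CPM in wild type. Of 15 nuclear speckle and SR splicing proteins, 10 lay above 0 and 5 below (median 0.02). Srsf3, an SR splicing factor, had 153 and 158 CPM in KPC, against 116 and 114 CPM in wild type (log2 fold change 0.44 ± 0.16 (SE), unadjusted p = 0.0408, adjusted p = 0.556, edgeR). Clk1, a kinase of SR proteins, had 9.40 and 9.30 CPM in KPC, against 21.5 and 11.5 CPM in wild type.

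On the snoRNA side, 8 of 9 tested snoRNP proteins had a log2 fold change above 0 (median 0.28), and 4 had both KPC libraries above both wild type ones, beside 20.6% of all tested rows. Gar1, a core H/ACA protein, had 25.8 and 23.1 CPM in KPC, against 15.9 and 18.1 CPM in wild type (log2 fold change 0.52 ± 0.18 (SE), unadjusted p = 0.0377, adjusted p = 0.545, edgeR). Nop58, of the box C/D particle, had 53.2 and 58.4 CPM in KPC, against 46.9 and 43.4 CPM in wild type. Of 10 nonsense-mediated decay factors, 7 lay above 0 and 3 below (median 0.09). Of 21 protein-coding genes that host snoRNAs, 8 lay above 0 and 13 below (median -0.08). Ncl, which encodes nucleolin, had 589 and 697 CPM in KPC, against 541 and 482 CPM in wild type, and Rps12, a ribosomal protein gene, had 530 and 579 CPM in KPC, against 842 and 660 CPM in wild type.

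The lists also held other noncoding RNAs. Of 6 tested noncoding snoRNA hosts outside the members, 5 had a log2 fold change below 0 (median -0.42), beside 51.2% of all tested rows. In 2 of the 6 both KPC libraries lay below both wild type ones, beside 20.5% of all tested rows. Snhg12, 1 of these, had 9.11 and 11.2 CPM in KPC, against 13.7 and 12.4 CPM in wild type. Of 16 tested lncRNAs of other kinds, 14 lay below 0 (median -0.33), beside 51.2% of all tested rows. In 8 both KPC libraries lay below both wild type ones, beside 20.5% of all tested rows. Not all 16 are separate measures. Tsix had 59.0 and 137 CPM in KPC 1 and wild type 1, nearly the 58.4 and 136 CPM of Xist. Meg3, Rian and Mirg, all among the 8, share 1 imprinted cluster. Jpx and Ftx, also among the 8, both lie near Xist. Meg3, a maternally expressed imprinted RNA, had 55.4 and 49.8 CPM in KPC, against 152 and 78.3 CPM in wild type (log2 fold change -1.13 ± 0.35 (SE), unadjusted p = 0.0255, adjusted p = 0.537, edgeR). Mirg, from the same imprinted cluster, had 3.91 and 5.62 CPM in KPC, against 8.14 and 6.53 CPM in wild type. Dnm3os, a microRNA precursor RNA of mesenchymal cells, had 2.24 and 3.63 CPM in KPC, against 11.2 and 4.25 CPM in wild type. As with 6 of the 8 members, wild type 1 was the highest library for Meg3, Mirg, Dnm3os and Snhg12, as it was for 31% of all tested rows.

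**Figure D5:**
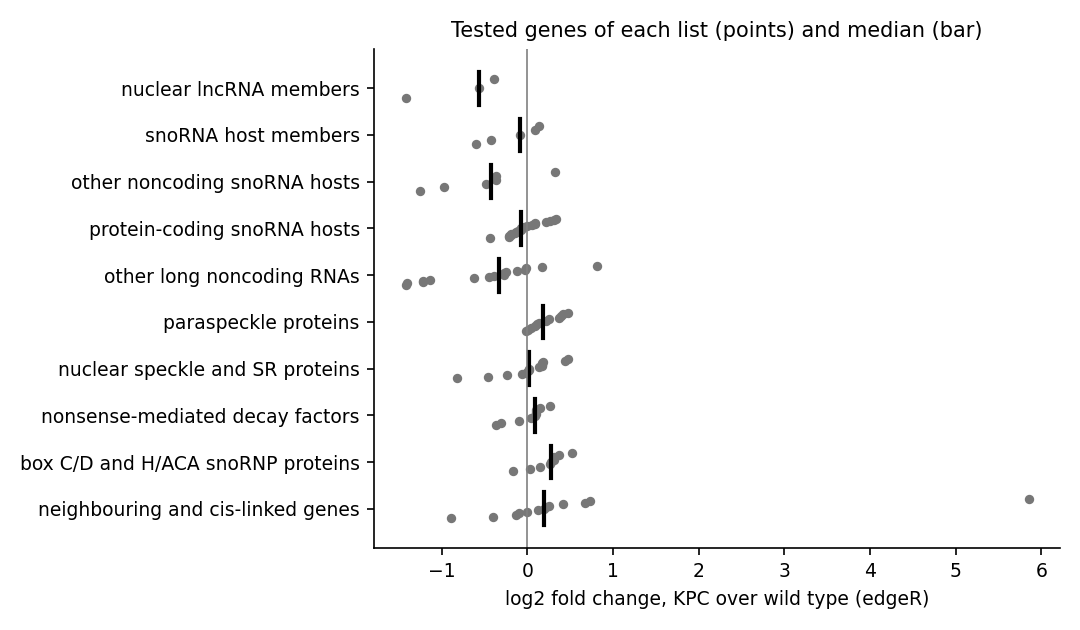
Log2 fold change of KPC over wild type (edgeR) for each tested gene of the member classes and of the functional lists, 1 point a gene, with the list median as a bar. Medians run from -0.57 for the nuclear lncRNA members to 0.28 for the snoRNP proteins, and no gene passed the adjusted test, Phlda2 at the far right included.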

How the data were processed

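Per the labels' protocols, 4 libraries of poly-A RNA were read from a single end, and the share of RNAs without an ordinary tail, such as Malat1 and long Neat1, that the beads kept is not known. The tools, per the submitters' processing notes, were TopHat2 2.0.3, bedtools, SAMtools 0.1.18 and FastQC 0.10.1, with mm10/GRCm38. The authors deposited, per library, a raw count for each interval (introns included), the covered bases, the length and the fraction of bases covered, which served only for coverage; other steps are not given in the sources used here. Rows with 1 count most often covered 37 bases. Reads with several matches, overlapping genes and strand could not be resolved.

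Counts were tested with edgeR 4.0.16 in R 4.3.3 (filterByExpr minimum count 10, TMM factors 0.988 to 1.02, quasi-likelihood test without a block, Benjamini-Hochberg over 23046 rows). SE is the unshrunk log2 fold change over the square root of F. The common dispersion was 0.103. Chi-square per degree of freedom between libraries of a group was 80.9 in KPC and 147 in wild type, so no library repeated another. Class values are means of log2 CPM (prior count 2). Intervals and the 3-count floor cover counting error only, and the p-values measure only the spread between these libraries. Scripts were tested on simulated data, with rows changed by known folds. There edgeR recovered 0% of rows changed 2-fold and 14.4% of those changed 4-fold, and DESeq2 8.4% and 61.2%. False calls per simulated set were 4.6 for edgeR and 62.4 for DESeq2. That a member did not pass therefore does not show that it was unchanged. Alternatives were DESeq2 1.42.0, limma 3.58.1 voom, other scalings and filters, omission of each library, and the replicate number as a block.

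Members and the 16 lists were chosen with earlier results of these data known. Named are all members, up to 3 genes per list of smallest p with at least 1 CPM, rows overlapping a member, Trp53 and Myc; the text gives a part of these, and some are not reported here. Sequences are GENCODE M21 transcripts found by name.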

Additional observations from a re-analysis of the deposited data

How the results depend on the processing

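Every member kept its direction under the scaling, filter, test and overlapping-row alternatives. Of 112 member values, 104 kept direction and side of the threshold. In most of these settings 0 rows of the whole table passed, so the side could not change there. The row subtractions also left the counts of the other members as they were. Leaving out wild type 1 turned Malat1 (1.03), Neat1 (0.073), Snhg5 (0.080) and Snhg6 (-0.56). Leaving out KPC 1 turned Snhg5 (0.074) and Snhg6 (-0.36), and leaving out KPC 2 turned Malat1 (0.063). Neat1 changed side of the threshold only without wild type 2 (-2.13), a fit left with 1 wild type library in which many other rows changed side too. Over single omissions the log2 fold changes ran from -1.09 to 1.03 for Malat1, -2.13 to 0.073 for Neat1, -0.83 to -0.23 for Pvt1, -0.91 to -0.21 for Gas5, 0.0011 to 0.30 for Snhg1, -0.72 to -0.14 for Snhg3, -0.25 to 0.080 for Snhg5 and -0.56 to 1.28 for Snhg6. The class medians ran from -1.09 to 0.073 (nuclear) and -0.25 to -0.14 (hosts), and the class difference from -1.26 to 0.38. The cause was not tested.

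With the replicate number as a block, 0 rows passed in either direction, and Malat1 stood at -0.14, Neat1 at -1.05 and Snhg6 at 0.31, and no call changed. The labels do not pair the libraries, and the deviations of same-numbered libraries correlated at 0.136. KPC over wild type within replicate numbers had 1 direction in both for 3 of 8 members (Neat1, Pvt1, Snhg1).

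DESeq2 called 352 rows higher and 292 lower, where edgeR called 0. Without single libraries edgeR called 0 to 429 higher and 0 to 406 lower. Upper quartile factors turned Mcmdc2 (-0.044) and moved the median of all rows to -0.08. Single omissions also spanned 0 for Gm20417 (-1.36 to 1.20), Mcmdc2 (-0.27 to 0.36), NEAT1_1 (-2.33 to 1.11) and NEAT1_2 (-2.33 to 0.077). So they did for Rcc1 (-0.0076 to 0.42), Smg1 (-0.59 to 0.059), Snhg7 (-1.57 to 0.14), Snora73b (-0.87 to 0.38) and Snord22 (-0.24 to 0.0095). Without wild type 2, a fit left with 1 wild type library, Meg3, NEAT1_2 and NEAT1_3 stood at -1.53, -2.33 and -2.22. The class difference was -0.21 without Neat1 and -0.52 with overlapping rows taken off, settings that, like the omission of Snhg6 and the row subtractions for members, were chosen after seeing the data. Leaving out Kcnq1ot1 was not run, as it has no row, and scaling cancels within a library.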
